A study of Sus scrofa with 24 samples.

Results

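The border zone of a chronic infarct was compared between pigs that received the secretome of apoptotic blood mononuclear cells and pigs that did not. The border zone arrays were picked by the region given in the sample labels, and they number 9 of the 24 arrays of the study, with 1 array per pig. Of these, 6 came from secretome pigs (pigs 11 to 16) and 3 from pigs labelled as not treated (pigs 10, 18 and 40), which are taken here as the medium placebo arm. The other arrays read the infarct core (9) and the normal region (6) of the same hearts, and serve below to show where the border zone differs.

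All pigs were domestic pigs given 250 mg aspirin and 300 mg clopidogrel the day before a closed-chest, reperfused myocardial infarction was set. Both arms then took 100 mg aspirin and 75 mg clopidogrel daily. At 1 month they were randomised, and secretome or medium was delivered by catheter into the heart muscle, in the border zone itself. Tissue was taken 1 month after the injection. By the design text each arm had 8 pigs, of which some have no array here. Total RNA with an integrity number above 6 was used, and 100 ng of each was amplified and labelled with Cy3 for a 1-colour porcine array. The comparison asks how the injected secretome altered gene expression in the chronically ischaemic heart. Each array is a different pig, so its p-values measure the spread between pigs.

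The border zone is the rim of living muscle around an infarct scar, where cardiomyocytes, fibroblasts, vessels and immune cells lie side by side. A secretome is the set of proteins, lipids and vesicles that cells release into their medium. Inflammation after infarction runs in part through the inflammasome, a complex in which a sensor such as NLRP3 activates caspase-1 (CASP1), which in turn cuts the precursors of interleukin-1 beta and interleukin-18 into their active forms. The RNA came from whole tissue, so fewer cells of a type and less RNA per cell cannot be told apart in any value below.

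Levels are log2 signals relative to the 75th percentile of each array, so that 0 is that percentile and each step of 1 is a doubling. Differences are secretome minus medium on that log2 scale, with the standard error (SE) of a limma fit over the 9 pigs that holds the scan series constant. The files fall in 2 scan series: series 1 holds pigs 18 and 40 of the medium arm with pigs 12, 13 and 16 of the secretome arm, and series 2 holds medium pig 10 with secretome pigs 11, 14 and 15. Between 61.5% and 74.8% of the probes were well above background on the border arrays. The lowest was medium pig 40, whose array also had the lowest 75th percentile signal (210 intensity units, against 252 to 591 on the others). The scan series alone separated 12420 of 32026 probes at a limma adjusted p under 0.05. Of 10 cardiomyocyte markers 6 had a usable probe, with a summed linear level of 2602 to 5583 times the array's 75th percentile in medium and 3492 to 6835 in secretome pigs. The 4 usable of 8 fibroblast and scar markers summed to 289 to 392 in medium and 97.8 to 379 in secretome pigs.

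The results turn on a small set of probes, and 6 of them are shown here because their genes stand for the groups described. These include the inflammasome protease CASP1, the killer-cell receptor KLRK1, the interferon-induced chemokine CXCL11 and the macrophage immunoglobulin receptor FCGR1A. The others are probes of the fatty acid oxidation enzyme CPT1B and the sterol hydroxylase CYP27A1. Each is the 60-base probe sequence as the scanner files give it, and the values of these genes below are the brightness of these spots. No genome positions were used here.
CASP1: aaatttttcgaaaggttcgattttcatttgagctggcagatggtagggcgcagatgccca
KLRK1: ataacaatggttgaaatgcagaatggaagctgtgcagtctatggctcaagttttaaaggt
CXCL11: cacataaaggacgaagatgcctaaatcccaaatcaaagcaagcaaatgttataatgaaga
FCGR1A: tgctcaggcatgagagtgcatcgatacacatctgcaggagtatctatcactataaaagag
CPT1B: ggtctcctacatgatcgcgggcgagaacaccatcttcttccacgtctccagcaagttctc
CYP27A1: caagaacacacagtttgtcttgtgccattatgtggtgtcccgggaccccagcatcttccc

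Across the array no probe passed the test. Of 32026 probes well above background on at least 3 border arrays, 0 differed between the arms at a Benjamini-Hochberg adjusted p under 0.05 in limma (percent called 0), and the smallest adjusted p was 0.480. At an unadjusted p under 0.05, 1631 probes read higher with secretome (5.09%) and 1591 lower (4.97%). Of the 5723 genes with a symbol, each read from its brightest probe, 325 were higher (5.68%) and 326 lower (5.7%) by that measure. In simulated data with 200 changed probes among 32007, the same fit recovered 2 when the change was 2-fold, 183 when it was 4-fold and 194 when it was 8-fold. It also called 1, 6 and 14 unchanged probes. In that setting most 2-fold changes were not detectable with 9 pigs. The simulated noise was independent between probes and the number of changed probes was set in advance. The recovered counts therefore need not hold for the real arrays. Every difference below is a measured value that did not pass the test over the array with these settings. The genes named are members of the lists described or those of smallest p whose arms did not overlap within either scan series. Lists were chosen with earlier results of these data known, and members of a list can move together over the same 9 pigs. A list's share at an unadjusted p under 0.05, given below beside that of all genes, is therefore not a test of the list.

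**Figure D1:**
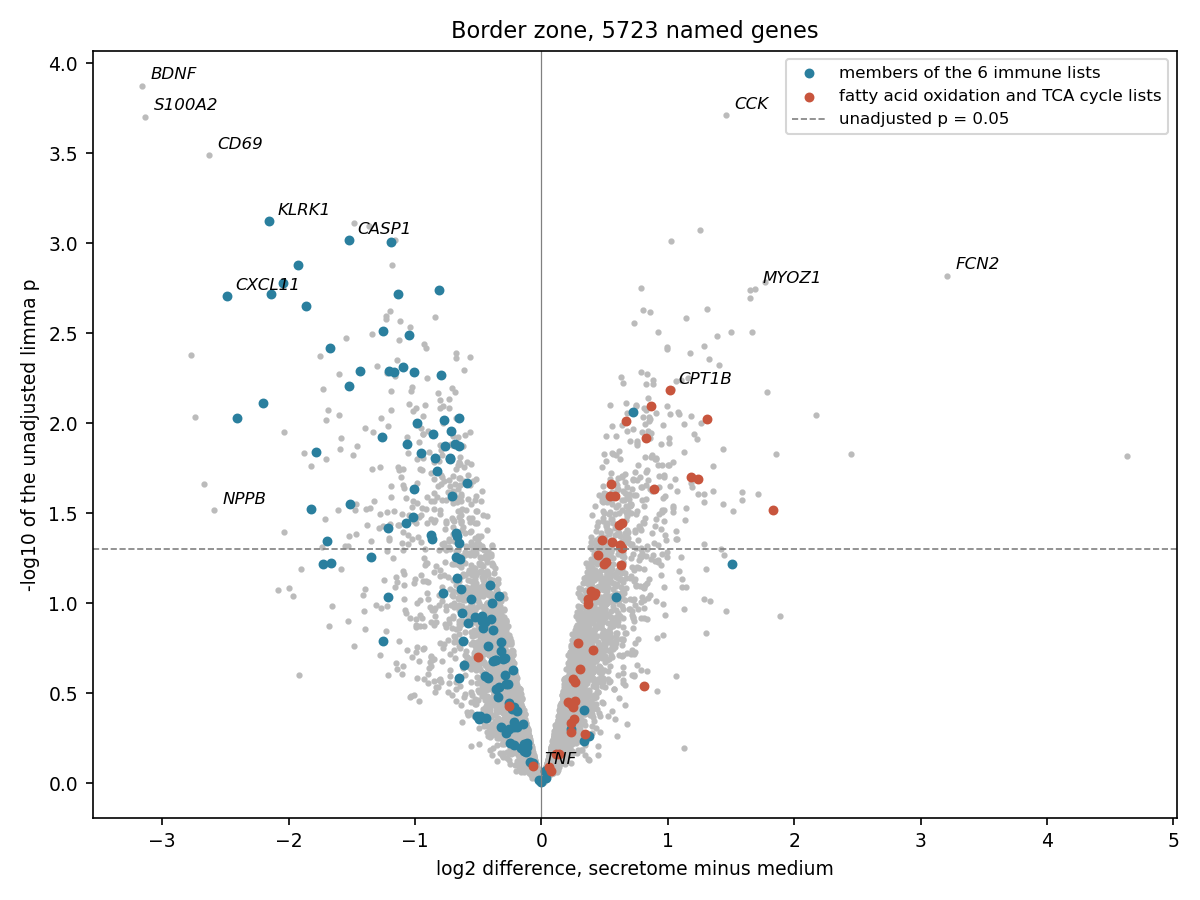
Log2 difference between the arms in the border zone (x axis, secretome minus medium) against -log10 of the unadjusted limma p (y axis) for 5723 named genes, 1 point per gene, with members of immune and of metabolic lists coloured. CASP1 lies at -1.52, KLRK1 at -2.16 and CPT1B at 1.02, and no gene passed after adjustment.

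On the lower side BDNF and S100A2 had the smallest p of the named genes. BDNF, a neurotrophin, read 0.28, -1.05 and 0.08 in medium pigs 10, 18 and 40, and from -4.59 to -1.86 with a median of -3.13 in the 6 secretome pigs. The groups did not overlap, and every secretome pig was lower than every medium pig. The difference was -3.16 (SE 0.51, limma adjusted p 0.480), which is 8.94-fold lower with secretome. S100A2, a calcium-binding protein found mainly in epithelia, read 0.51, -0.14 and 1.01 with medium and from -4.29 to -1.67 with a median of -2.66 with secretome, again without overlap. Its difference was -3.13 (SE 0.53, limma adjusted p 0.480), with -2.72 in scan series 1 and -3.80 in series 2. With normexp background correction both genes passed the limma test, at -1.87 for BDNF and -2.16 for S100A2 (adjusted p 0.0388). In the authors' deposited table of normalized log2 values BDNF differed by -1.23 and S100A2 by -1.64, and 0 probes were called there. Of all named genes, 91 had groups that did not overlap with secretome lower (1.59%) and 46 with secretome higher (0.804%).

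Some of the next genes on the lower side are known from lymphocytes. CD69, an early activation marker of lymphocytes, read -4.35, -4.68 and -3.75 with medium and from -7.81 to -5.81 with a median of -7.19 with secretome. It was not well above background on any of the 6 secretome arrays. In the main scaling the level with secretome was therefore at least 2.26-fold lower (limma adjusted p 0.480). The probe passed the background filter only through the 3 medium arrays, so the direction of this bound was fixed by that filter. The bound sets the medium mean against the dimmest signal that counts as well above background. It does not hold for other background handling, since CD69 differed by -0.42 with normexp and -0.15 in the authors' deposited table. IL7, a growth factor of T cells, differed by -1.48 (SE 0.30) and was well above background in 2 of 3 medium and 2 of 6 secretome pigs. SLC2A6, of the glucose transporter family, differed by -1.36 (SE 0.28), and the membrane protein TM7SF3 by -1.16 (SE 0.24). With normexp IL7 differed by -0.40, SLC2A6 by -0.90 and TM7SF3 by -0.39. For IL7, SLC2A6 and TM7SF3 the arms overlapped over all pigs. No overlap within either scan series was a condition for naming the 12 genes per direction, so it is not a separate result. By that measure 297 genes were lower (5.19%) and 312 higher (5.45%).

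On the higher side the smallest p of the named genes belonged to CCK. CCK, a peptide hormone, read 7.42, 5.48 and 5.40 in medium pigs 10, 18 and 40, and from 6.78 to 8.50 with a median of 8.04 with secretome. Medium pig 10 lay within the secretome range. Within each scan series all secretome pigs were above all medium pigs, which was a condition for naming the gene. The difference was 1.46 (SE 0.25, limma adjusted p 0.480), 2.76-fold higher. GLRX5, which serves iron-sulfur cluster building in mitochondria, differed by 1.26 (SE 0.26), and NEURL2, a ubiquitin ligase adaptor of muscle, by 1.02 (SE 0.22).

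Other genes of small p on the higher side were of several kinds. MYOZ1, a Z-disc protein that binds calcineurin, read -0.83, -1.34 and -1.30 with medium and from -0.49 to 1.52 with a median of 0.47 with secretome, without overlap, and differed by 1.69 (SE 0.39). CYP27A1, the mitochondrial sterol hydroxylase, read 1.88, -1.03 and -0.72 with medium and from 1.21 to 2.66 with a median of 2.07 with secretome, and differed by 1.65 (SE 0.38). Its medium pig 10 lay inside the secretome range, and the difference was 2.38 in series 1 and 0.48 in series 2. ACACB, the acetyl-CoA carboxylase that restrains fatty acid entry into mitochondria, differed by 1.31 (SE 0.32). ADRA1A, an alpha-1 adrenergic receptor, differed by 1.77 (SE 0.41) and the synaptic adhesion protein LRFN2 by 0.79 (SE 0.18). With normexp ADRA1A differed by 0.48 and LRFN2 by 0.25, and ADRA1A by 0.29 in the authors' deposited table. SLC1A3, a glutamate transporter, differed by 0.80 (SE 0.19), and IKBKB, a kinase of the NF-kB pathway, by 0.86 (SE 0.21). The 3 probes of IKBKB ran from 0.067 to 0.86. The transcription factor CUX2 differed by 1.65 (SE 0.39) and was well above background in 1 of 3 medium pigs. Its difference was 0.20 with normexp and 0.15 in the authors' deposited table.

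FCN2, a serum lectin that starts the lectin pathway of complement, varied widely within the medium arm. It read -3.61, -1.59 and 0.71 in medium pigs 10, 18 and 40, and from 0.77 to 2.59 with a median of 1.51 with secretome. The arms did not overlap, though pig 40 lay just below the lowest secretome pig. The difference was 3.21 (SE 0.73, limma adjusted p 0.480), with 1.97 in scan series 1 and 5.19 in series 2. It was 4.56 (SE 0.21) in the normal region and 1.78 (SE 1.03) in the infarct core.

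**Figure D2:**
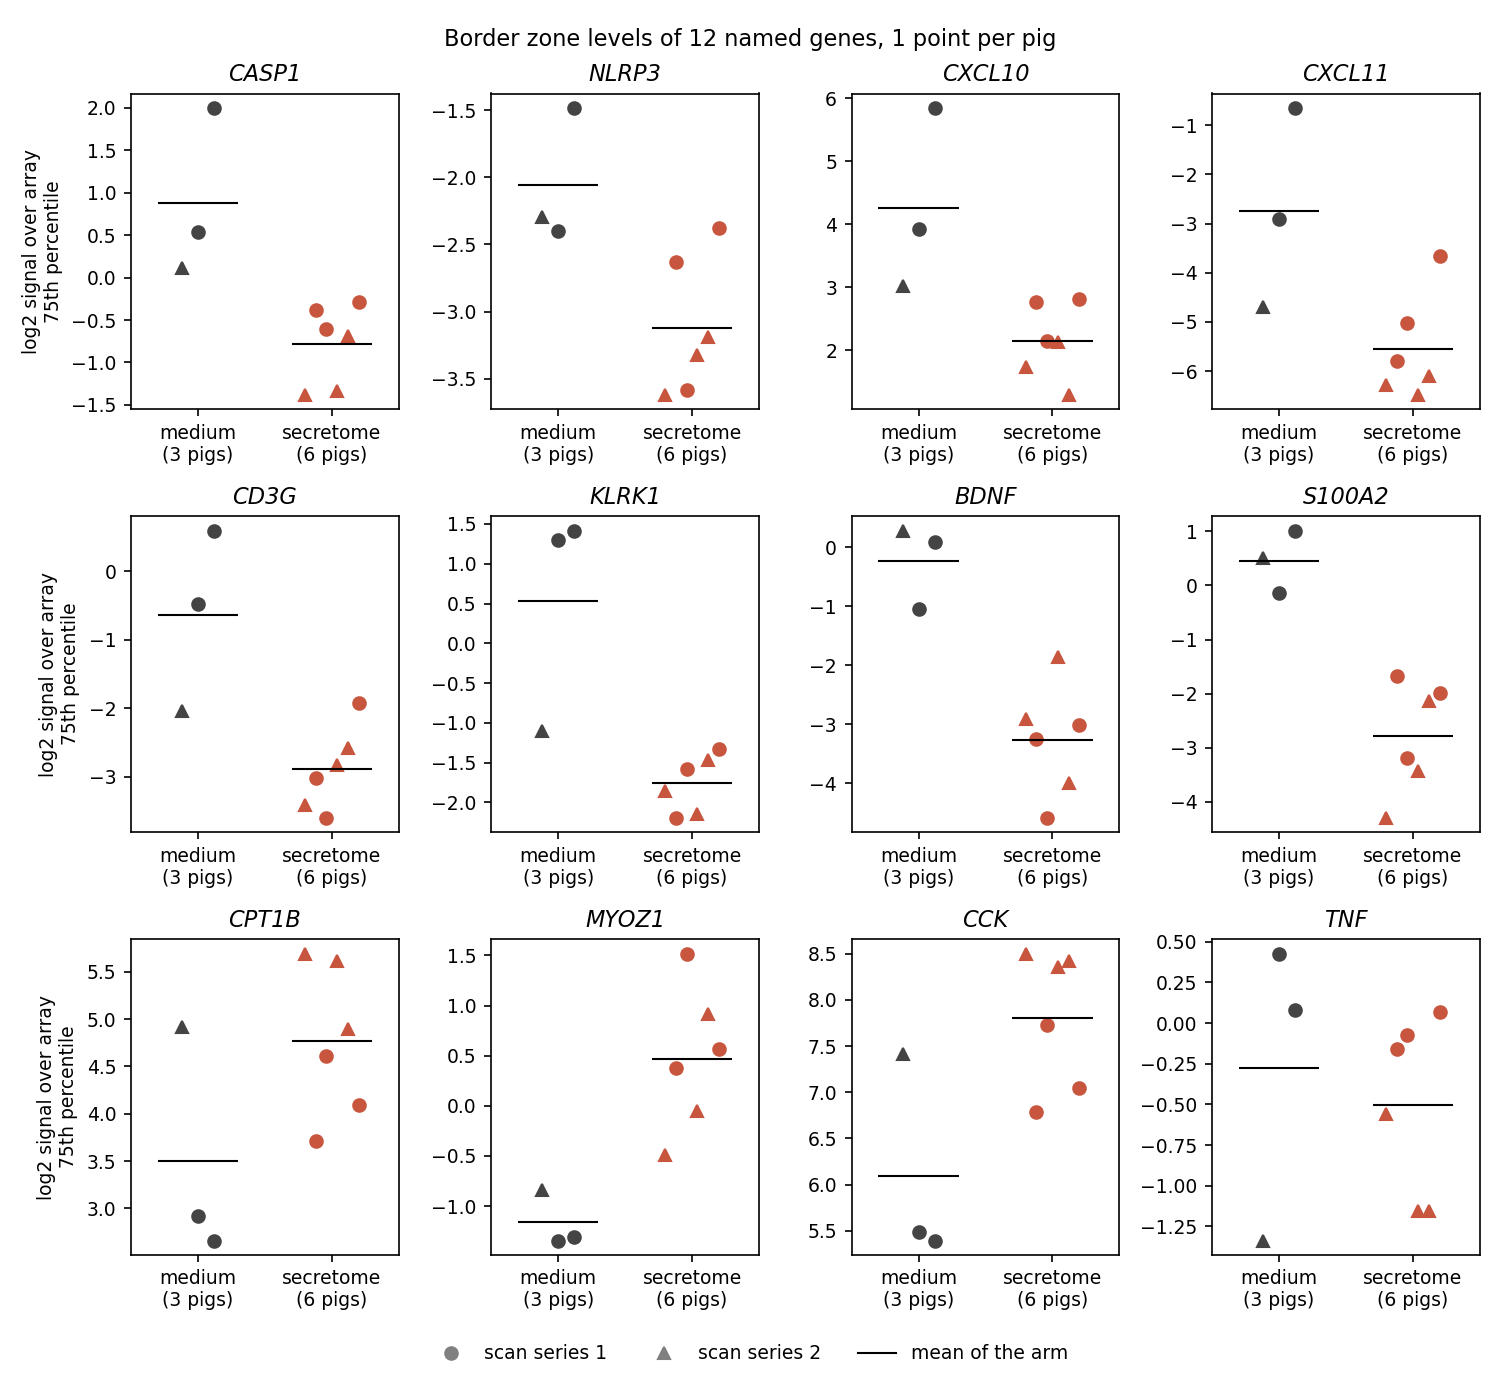
Level of 12 named genes in the border zone of each pig (y axis, log2 signal over the array's 75th percentile) by arm, with circles for scan series 1, triangles for series 2 and a line at the mean of the arm. CASP1, CXCL10, KLRK1, BDNF and S100A2 show no overlap between 3 medium and 6 secretome pigs, CPT1B and CCK overlap through medium pig 10, and all TNF values with secretome fall within the medium range.

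Most of the inflammasome genes measured read lower with secretome, with CASP1 in front. CASP1 read 0.12, 0.54 and 2.002 in medium pigs 10, 18 and 40, and from -1.38 to -0.28 with a median of -0.65 with secretome. All 6 secretome pigs lay below all 3 medium pigs. The difference was -1.52 (SE 0.32, 95% interval -2.25 to -0.80, limma adjusted p 0.480), 2.87-fold lower, and it was -1.11 without medium pig 40. An exact two-sided permutation test over the 84 ways to draw 3 of 9 pigs gave p = 0.0119, the smallest that 84 arrangements allow. With the scan series kept fixed it gave 0.025, the smallest that 40 arrangements allow. CASP1 was 1 of 26 genes tested in this way, 3 of them had an unadjusted exact p under 0.05 over all pigs and 2 within the series (CASP1 and GATA4), and after Benjamini-Hochberg adjustment over the 26 genes the number under 0.05 was 0 in both.

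NLRP3, the sensor that recruits CASP1, read -2.29, -2.40 and -1.48 with medium and from -3.62 to -2.38 with a median of -3.26 with secretome. Secretome pig 16 lay just above medium pig 18 and the other 5 lay below all medium pigs. The difference was -0.98 (SE 0.31, exact permutation p 0.0357 over all pigs and 0.05 within the series, limma adjusted p 0.480), and -0.44 with normexp. IL1B, which encodes the interleukin-1 beta precursor, read -4.03, -3.97 and -3.08 with medium and from -6.84 to -4.18 with a median of -4.98 with secretome. Its groups did not overlap and its difference was -1.51 (SE 0.58, exact permutation p 0.0357 over all pigs and 0.075 within the series). It was well above background in 4 of 6 secretome pigs, and the difference was -0.42 with normexp. IL18 differed by -1.35 (SE 0.62), and its groups overlapped, since it read -1.88, 0.97 and 2.12 in the medium pigs.

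Of the inflammasome and interleukin-1 list 6 of 22 genes had a usable probe. Their median difference was -1.17, against -0.02 over all 5723 genes, and 5 of 6 lay below 0, as did 52.7% of all genes. The exception was TXNIP, a thioredoxin inhibitor that can bind NLRP3. It read 7.21, 6.91 and 7.29 with medium and from 7.49 to 8.33 with a median of 7.82 with secretome, without overlap (difference 0.72, SE 0.22, limma adjusted p 0.480). The list median was -1.31 in scan series 1 and -0.81 in series 2. It was -0.82 without medium pig 40 and -0.43 with normexp background correction.

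The list of TNF and NF-kB genes had a median difference near 0. TNF, an inflammatory cytokine of macrophages, read -1.34, 0.43 and 0.08 with medium and from -1.16 to 0.07 with a median of -0.36 with secretome. All secretome values fell within the medium range, and the difference was -0.04 (SE 0.23, limma adjusted p 0.949, exact permutation p 0.643), with -0.31 in series 1 and 0.38 in series 2. The 22 measured genes of the TNF and NF-kB list had a median of -0.10, with 14 below and 8 above 0, and its sign turned without medium pig 18 (0.027). LTB, a lymphoid cytokine, differed by -0.77 (SE 0.33), and TRAF6, an adaptor of the interleukin-1 and toll-like receptors, by 0.47 (SE 0.21). MYD88, the adaptor upstream of TRAF6, differed by -0.34 (SE 0.22) and NFKB1 by 0.30 (SE 0.23).

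Chemokines, interleukins and their receptors lay lower with secretome. Of 35 measured members 32 were below 0, and 14 had an unadjusted p under 0.05 with secretome lower (40%, beside 5.7% of all genes) and 0 with secretome higher. The median was -0.61. CXCL10, a ligand that draws CXCR3-bearing T cells, read 3.02, 3.93 and 5.85 with medium and from 1.29 to 2.81 with a median of 2.15 with secretome. The groups did not overlap, and the difference was -1.92 (SE 0.43, limma adjusted p 0.480), 3.79-fold lower, and -1.33 without medium pig 40. CXCL11, a ligand of the same receptor, read -4.70, -2.90 and -0.65 with medium and from -6.48 to -3.66 with a median of -5.95 with secretome, and medium pig 10 fell within the secretome range. It differed by -2.49 (SE 0.59), and by -0.78 with normexp background correction, and was well above background in 2 of 6 secretome pigs. CXCL9, the third ligand of that receptor, differed by -2.41 (SE 0.74).

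CCL5, a chemokine of T cells and platelets, read 3.22, 2.49 and 2.34 with medium and from 0.54 to 2.15 with a median of 1.75 with secretome, without overlap, and differed by -1.26 (SE 0.32, limma adjusted p 0.480). The monocyte receptor CCR2 differed by -0.80 (SE 0.22), and the anti-inflammatory IL10 by -0.96 (SE 0.32). CXCL12, which retains progenitor cells, differed by 0.24 (SE 0.34). The list median was -0.79 in scan series 1 and -0.40 in series 2, and -0.26 in the authors' deposited table of normalized log2 values.

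Genes of the interferon response also lay lower. Of 28 measured members 25 were below 0 and 12 had an unadjusted p under 0.05 with secretome lower (42.9%, beside 5.7% of all genes). The median was -0.46, with -0.60 in scan series 1, -0.27 in series 2 and -0.30 without medium pig 18. IFIT3, an antiviral effector, read 0.65, 1.64 and 1.30 with medium and from -0.15 to 0.74 with a median of 0.24 with secretome, with medium pig 10 inside that range, and differed by -0.81 (SE 0.19, limma adjusted p 0.480). SAMD9, another interferon-induced gene, read -1.22, -0.18 and 0.78 with medium and from -1.68 to -1.37 with a median of -1.45 with secretome. Its groups did not overlap, and the difference of -1.21 (SE 0.33) was -1.80 in scan series 1, -0.26 in series 2 and -0.79 without medium pig 40. IFI44 differed by -0.65 (SE 0.20), and IFNG, interferon gamma itself, by -0.87 (SE 0.37). OAS1, an antiviral synthetase, lay on the other side at 1.51 (SE 0.71).

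Antigen presentation genes all lay on the lower side, mostly by small amounts. All 20 measured members were below 0, from -1.17 to -0.13 with a median of -0.39, and 6 had an unadjusted p under 0.05 (30%, beside 5.7% of all genes). SLA-DOB and SLA-DMB, which act in peptide loading of class II molecules, differed by -1.17 (SE 0.32) and -0.77 (SE 0.24), and PSMB9, an immunoproteasome subunit, by -0.72 (SE 0.25). For these 3 genes the arms did not overlap. SLA-DOB differed by -0.50 with normexp and by -0.25 in the authors' deposited table. B2M, the light chain of class I molecules, differed by -0.72 (SE 0.25). The mean over the list was 3.25 to 3.42 in the medium pigs and 2.54 to 3.11 in the secretome pigs, 1 of 2 list means among 23 whose arms did not overlap. Genes of the histocompatibility complex are alike in sequence, so a probe may read more than 1 of them and their values are uncertain.

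T and natural killer cell genes had a median of -1.14 over 21 genes. Of these 20 were below 0 and 9 had an unadjusted p under 0.05 with secretome lower (42.9%, beside 5.7% of all genes). KLRK1, the activating receptor NKG2D, read -1.11, 1.30 and 1.41 in medium pigs 10, 18 and 40, and from -2.19 to -1.33 with a median of -1.72 with secretome. The groups did not overlap and the difference was -2.16 (SE 0.44, limma adjusted p 0.480), 4.46-fold lower, and -1.86 without medium pig 40. CD3G, a subunit of the T cell receptor complex, read -2.03, -0.48 and 0.59 with medium and from -3.60 to -1.92 with a median of -2.93 with secretome. Pig 16 was the 1 secretome pig above medium pig 10, and the difference was -2.14 (SE 0.50). CD2, an adhesion receptor of T cells, read -3.16, -1.31 and -0.32 with medium and from -4.35 to -2.65 with a median of -3.98 with secretome and differed by -2.05 (SE 0.47). The CD2 difference was -1.02 with normexp and -0.60 in the authors' deposited table.

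Of further T cell genes, CD3D differed by -1.86 (SE 0.45), CD8A by -1.67 (SE 0.44), CD3E by -1.26 (SE 0.41) and CD4 by -0.02 (SE 0.34). The list median was -1.18 in scan series 1 and -0.11 in series 2, whose medium pig is pig 10. The mean over the list was -2.14 in medium pig 10, -0.59 in pig 18 and -0.63 in pig 40, and -2.61 to -1.42 in the secretome pigs. KLRK1 itself differed by -3.06 in series 1 and -0.72 in series 2. The T and NK markers NKG7, CD3D, CD3E and CD2 (4 of 4 usable) summed to a linear level of 1.29 to 3.22 in medium and 0.673 to 1.48 in secretome pigs. With normexp background correction the list median was -0.48, and in the authors' deposited table it was -0.33. It was -0.75 without medium pig 18 and -0.71 without secretome pig 13.

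Macrophage genes lay lower in both scan series. Of 23 measured members 21 were below 0 and 9 had an unadjusted p under 0.05 with secretome lower (39.1%, beside 5.7% of all genes). The median was -0.67, with -0.69 in series 1 and -0.65 in series 2. FCGR1A, the high-affinity immunoglobulin receptor, read -1.30, -0.89 and -0.60 with medium and from -2.50 to -1.57 with a median of -2.27 with secretome, without overlap. It differed by -1.19 (SE 0.25, limma adjusted p 0.480). CD86 and CD80, which costimulate T cells, differed by -1.05 (SE 0.27) and -1.01 (SE 0.28), also without overlap. With normexp CD86 differed by -0.97 and CD80 by -0.40, and CD80 by -0.15 in the authors' deposited table. LYZ, the lysozyme of myeloid cells, read 0.74, 2.24 and 1.92 with medium and from -1.95 to 1.68 with a median of -0.17 with secretome and differed by -1.52 (SE 0.43), with pigs 13 and 16 above medium pig 10. CD163, a scavenger receptor of macrophages, differed by -0.62 (SE 0.41), with overlap. The mean over the list was 0.83 to 1.42 in medium and -0.21 to 0.81 in secretome pigs, the other list mean without overlap.

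Complement genes had a median of -0.44 over 22 members, 18 of them below 0. C9, part of the membrane attack complex, differed by -1.19 (SE 0.36) and was well above background in 3 of 6 secretome pigs. C6 of the same complex differed by -1.61 (SE 0.63), and CD55, which protects cells from complement, by -1.05 (SE 0.42). With normexp C9 differed by -0.29, C6 by -0.38 and CD55 by -0.87. The list median was -0.26 without secretome pig 13 and -0.27 without medium pig 18.

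The mean level of scar matrix genes in the pieces differed between pigs. The mean over 31 scar matrix genes was 2.02 to 2.75 in the medium pigs. It was 0.12 in secretome pig 11, 1.11 in pig 13, 1.34 in pig 14, 2.31 in pig 15, 2.52 in pig 12 and 2.69 in pig 16. The normal region read 0.10 to 1.69 and the infarct core 3.14 to 4.75. The border means of secretome pigs 11, 13 and 14 thus lay within the range of the normal region, and no medium border mean did. Pig 11 also had the lowest macrophage mean of the border arrays, and pig 16 had the highest T and NK mean of the secretome arrays. The part of scar content in the immune and metabolic differences was not tested.

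Among the scar genes 27 of 31 lay below 0 with a median of -0.59, and 2 had an unadjusted p under 0.05 with secretome lower (6.45%, beside 5.7% of all genes). POSTN, periostin of activated fibroblasts, read 4.09, 4.47 and 5.29 with medium and from -0.74 to 4.77 with a median of 3.41 with secretome. The groups overlapped, and the difference was -1.40 (SE 0.86, limma adjusted p 0.576), with -0.90 without secretome pig 11. FN1, fibronectin, differed by -1.53 (SE 0.67), TNC, tenascin-C of remodelling tissue, by -1.97 (SE 1.05), and ASPN, asporin, by -1.14 (SE 0.47). FBLN5, which assembles elastic fibres, lay on the other side at 0.72 (SE 0.26). The list median was -0.37 in scan series 1 and -1.22 in series 2, -0.91 without medium pig 40 and -0.38 without secretome pig 13.

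Matrix proteases had a median of -0.09 over 29 members, with 0.19 in series 1 and -0.43 in series 2, so its sign turned with the series; it was -0.27 without medium pig 40. MMP11, stromelysin-3, differed by 1.03 (SE 0.30), and its 5 probes ran from 0.30 to 1.04. ADAMTS2, which trims procollagen, differed by -0.67 (SE 0.30), and MMP12, the macrophage elastase, by -0.80 (SE 0.38) with 3 of 6 secretome pigs well above background. With normexp ADAMTS2 differed by -0.35 and MMP12 by -0.18. CTSK, the collagen-cleaving cathepsin K, differed by -0.58 (SE 0.35), and TGFB1, a growth factor of scar formation, by 0.16 (SE 0.19).

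**Figure D3:**
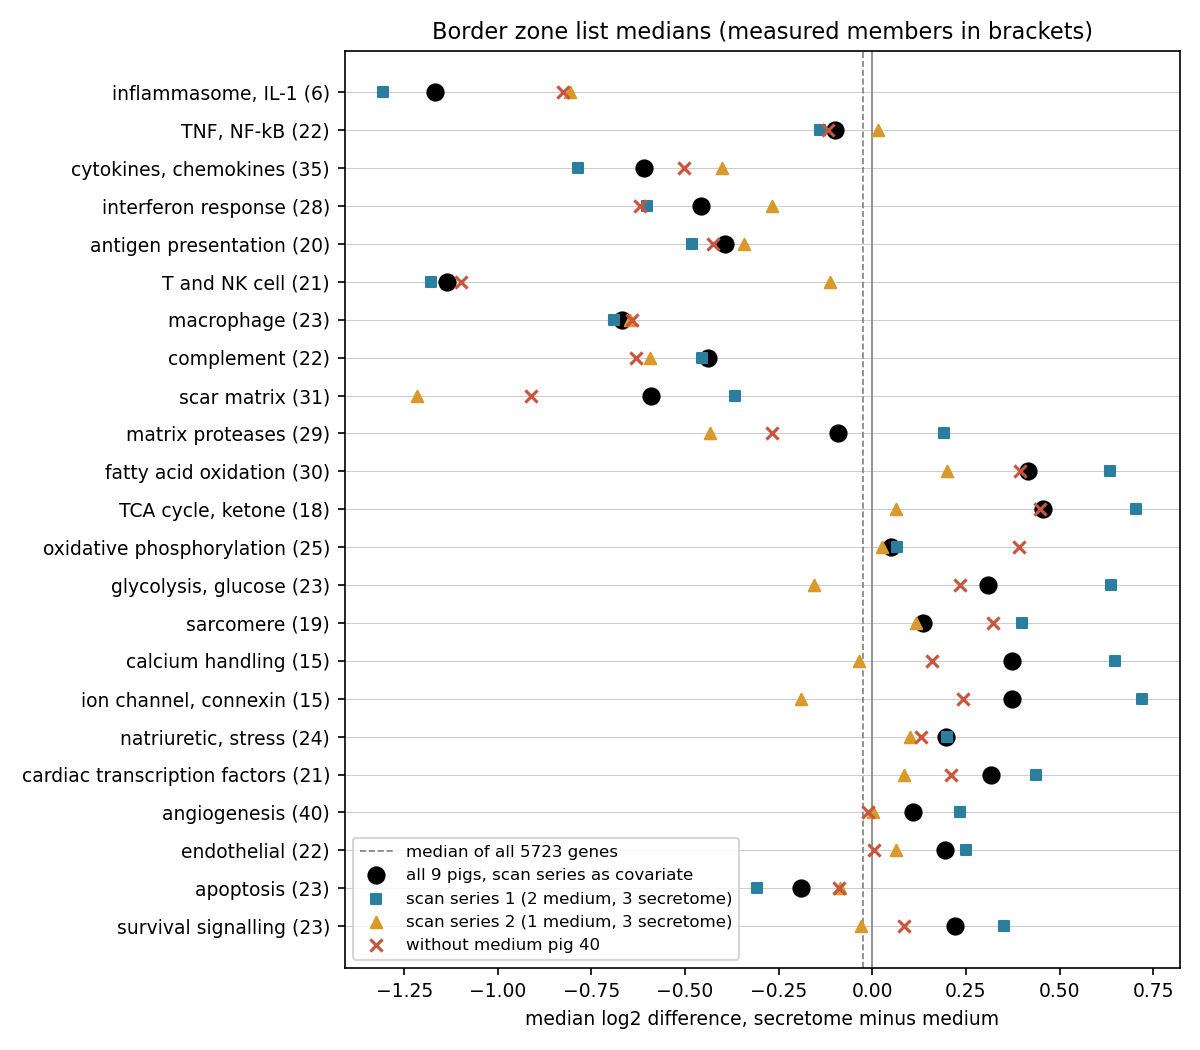
Median log2 difference in the border zone (x axis, secretome minus medium) of 23 gene lists (y axis, measured members in brackets) over all 9 pigs, within each scan series and without medium pig 40. The macrophage, antigen presentation and inflammasome medians lie below 0 in all 4 fits, while calcium handling, ion channel and glycolysis medians lie above 0 in series 1 and below 0 in series 2.

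Genes of fatty acid oxidation, the main fuel pathway of heart muscle, lay higher with secretome. Of 30 measured members 27 were above 0, beside 47.3% of all genes, and 11 had an unadjusted p under 0.05 with secretome higher (36.7%, beside 5.68% of all genes). The median was 0.41, with 0.64 in scan series 1, 0.20 in series 2 and 0.23 in the authors' deposited table. It was also 0.64 without medium pig 10, the 1 medium pig of series 2. CPT1B, which moves long-chain fatty acids into mitochondria, read 4.92, 2.92 and 2.66 in medium pigs 10, 18 and 40, and from 3.72 to 5.69 with a median of 4.75 with secretome. Medium pig 10 lay within the secretome range, and the difference was 1.02 (SE 0.29, limma adjusted p 0.480), 2.02-fold higher. It was 1.35 in scan series 1 and 0.48 in series 2. HADHA, of the mitochondrial trifunctional protein, read 5.14, 4.09 and 3.84 with medium and from 4.50 to 5.89 with a median of 5.20 with secretome and differed by 0.67 (SE 0.21). LIPE, hormone-sensitive lipase, differed by 1.31 (SE 0.40), PDK4, which turns glucose oxidation down, by 1.18 (SE 0.42), and UCP3, a mitochondrial carrier, by 1.83 (SE 0.72). The 3 probes of LIPE disagreed and ran from -0.23 to 1.31.

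All 18 measured genes of the TCA cycle and ketone use were above 0, from 0.23 to 0.89, with a median of 0.45 and 7 at an unadjusted p under 0.05 (38.9%, beside 5.68% of all genes). OXCT1, which lets the heart burn ketone bodies, differed by 0.87 (SE 0.26), SDHA of succinate dehydrogenase by 0.89 (SE 0.33), and IDH2, the mitochondrial isocitrate dehydrogenase, by 0.58 (SE 0.22). The median was 0.70 in scan series 1 and 0.06 in series 2. The 25 genes of oxidative phosphorylation had a median of 0.05, with 14 above and 11 below 0. NDUFA9 and NDUFAB1 of complex I differed by 0.62 (SE 0.24) and 0.60 (SE 0.30), and the ATP synthase subunit ATP5B by 0.46 (SE 0.21). Without medium pig 40 this median was 0.39 and without medium pig 18 it was -0.28, so its sign turned with 1 pig.

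Glycolytic and glucose genes had a median of 0.31 over 23 members, 0.64 in series 1, -0.15 in series 2 and 0.18 without secretome pig 15. PFKM, the muscle phosphofructokinase, read 5.13, 4.35 and 3.74 with medium and from 5.02 to 5.55 with a median of 5.30 with secretome and differed by 0.81 (SE 0.24). PRKAA2, a catalytic subunit of the energy sensor AMPK, differed by 0.69 (SE 0.26) and GPI, glucose phosphate isomerase, by 0.68 (SE 0.26). LDHA, a lactate dehydrogenase subunit, lay on the other side at -0.82 (SE 0.31).

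The 19 measured sarcomere genes had a median of 0.13, which moved with the setting. It was 0.00058 without medium pig 18, 0.40 without pig 10, 0.32 without pig 40, 0.060 without secretome pig 13 and 0.42 in the authors' deposited table. With each gene read as the mean of all its kept probes, in place of the brightest, the median was 0.46. MYH7, the main ventricular myosin, read 10.75, 9.80 and 10.23 with medium and from 10.15 to 11.02 with a median of 10.53 with secretome (difference 0.16, SE 0.17). The 8 probes of MYH7 ran from 0.13 to 0.98. LDB3, a Z-disc protein, differed by 1.01 (SE 0.33), SMYD1, a methyltransferase needed for sarcomere assembly, by 1.44 (SE 0.56), and XIRP1, an intercalated disc protein, by 1.11 (SE 0.51). LDB3 differed by 1.53 in scan series 1 and 0.18 in series 2, and SMYD1 by 2.17 and 0.26. The 12 probes of LDB3 ran from -0.078 to 1.01, and the 2 of XIRP1 from 0.26 to 1.11.

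Calcium handling and ion channel genes had medians of 0.37 and 0.37 over 15 members each. ATP2A2, which pumps calcium back into the sarcoplasmic reticulum, read 6.85, 5.07 and 5.04 with medium and from 5.93 to 7.47 with a median of 6.61 with secretome, with medium pig 10 inside that range, and differed by 0.76 (SE 0.27). CAMK2D, a calmodulin-dependent kinase, and RYR2, the calcium release channel, differed by 0.68 (SE 0.25) and 0.60 (SE 0.25). KCNQ1, a repolarising potassium channel, differed by 1.14 (SE 0.45), and GJA5, an atrial and conduction connexin, by 0.56 (SE 0.27). With normexp KCNQ1 differed by 0.12 and GJA5 by 0.050. The medians were 0.65 and 0.72 in series 1 and -0.04 and -0.19 in series 2, and 0.16 and 0.24 without medium pig 40. The ion channel median was 0.24 without secretome pig 13. For calcium handling, the list mean was 3.08 in medium pig 10, 2.03 in pig 18 and 2.03 in pig 40, against 2.47 to 3.12 with secretome.

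Stress and natriuretic genes had a median of 0.20 over 24 members, which was 0.38 without medium pig 18 and 0.13 without pig 40. NPPB, whose product BNP is released under wall stress, read 6.27, 7.45 and 7.50 with medium and from -0.08 to 6.52 with a median of 4.34 with secretome. Pigs 12 and 16 lay above medium pig 10, and pig 11, with the lowest scar mean, had the lowest NPPB. The difference was -2.59 (SE 1.02, 95% interval -4.88 to -0.30, limma adjusted p 0.480). NPPA, the atrial peptide, differed by 0.23 (SE 0.80), with all secretome values inside the medium range. AGT, angiotensinogen, read 1.92, 2.19 and 0.95 with medium and from 2.14 to 3.60 with a median of 3.26 with secretome. Pig 16 was the lowest of these and the other 5 lay above all medium pigs, and the difference was 1.39 (SE 0.36).

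Of 21 cardiac and myogenic transcription factors, 7 had an unadjusted p under 0.05 with secretome higher (33.3%, beside 5.68% of all genes) and the median was 0.32, with 0.21 without medium pig 40 and 0.20 without secretome pig 13. GATA4, a regulator of heart muscle genes, read -1.10, -2.20 and -3.32 with medium and from -1.92 to -0.52 with a median of -1.08 with secretome. All secretome pigs were above the medium pigs of their own scan series. The difference was 0.84 (SE 0.30, limma adjusted p 0.480), with an exact permutation p of 0.0833 over all pigs and 0.025 within the series, before adjustment over the 26 genes tested. Without medium pig 40 it was 0.47. The GATA4 difference was 0.39 with normexp and 0.33 in the authors' deposited table. MYOCD, myocardin, differed by 1.06 (SE 0.38) and HAND1 by 0.48 (SE 0.17), while HOPX lay on the other side at -1.20 (SE 0.52). MEF2C, which drives muscle and vessel genes, read 2.71, 1.55 and 1.50 with medium and from 1.67 to 3.02 with a median of 2.36 with secretome. Its groups overlapped, and the difference was 0.25 (SE 0.18, limma adjusted p 0.620, exact permutation p 0.298).

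Vessel genes were close to the array as a whole. The 40 angiogenesis genes had a median of 0.11 and the 22 endothelial genes 0.20. VEGFA, a vessel growth factor, read 1.35, 0.69 and 0.86 with medium and from 0.90 to 1.82 with a median of 1.51 with secretome. The groups overlapped over all pigs but not within either series, and the difference was 0.38 (SE 0.21, limma adjusted p 0.541, exact permutation p 0.131). Its receptor KDR differed by 0.24 (SE 0.30) and the junction protein PECAM1 by 0.48 (SE 0.22). NOS3, the endothelial nitric oxide synthase, differed by 0.84 (SE 0.42) and SELE, the leukocyte adhesion molecule E-selectin, by -1.22 (SE 0.51). With normexp NOS3 differed by 0.74 and SELE by -0.24. CXCR4, the CXCL12 receptor, differed by -1.07 (SE 0.44) and NOTCH1, a vessel patterning receptor, by -0.71 (SE 0.23). HIF1A, the oxygen-sensing transcription factor, differed by -0.03 (SE 0.26). Without medium pig 40 the angiogenesis median was -0.010, the endothelial median 0.0039 and NOS3 0.19. Without medium pig 18 the medians were 0.18 and 0.42, and the angiogenesis median was 0.24 without medium pig 10 and 0.17 without secretome pig 15.

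IGF2, a fetal growth factor, read 4.56, 5.08 and 3.48 with medium and from 5.03 to 6.25 with a median of 5.84 with secretome. Medium pig 18 lay just above secretome pig 13 and the other pigs did not overlap. The difference was 1.33 (SE 0.36, limma adjusted p 0.480), with 1.31 and 1.35 in the series. In the infarct core it was 1.61 (SE 0.38) and in the normal region 1.37 (SE 0.43). Other genes of the insulin-like growth factor axis were IGFBP5 at 1.29 (SE 0.34), IGFBP3 at 1.08 (SE 0.33) and the receptor IGF1R at 0.67 (SE 0.27). With normexp IGFBP5 differed by 1.24, IGFBP3 by 0.069 and IGF1R by 0.22. AKT1, a survival kinase downstream of that receptor, differed by -0.08 (SE 0.21), and the survival list had a median of 0.22 over 23 genes. That median was 0.35 in series 1 and -0.03 in series 2, 0.085 without medium pig 40 and 0.13 without secretome pig 12.

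Apoptosis genes had a median of -0.19 over 23 members, which was -0.34 without medium pig 18, -0.31 without pig 10 and -0.090 without pig 40. BCL2A1, an inhibitor of apoptosis in leukocytes, differed by -1.28 (SE 0.44), and the protease CASP8 by -0.38 (SE 0.18), with overlap.

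The same contrast was then read in the other regions. The core arrays cover the same 9 pigs, but the normal region was read in medium pigs 10 and 18 and secretome pigs 11, 14, 15 and 16 (2 against 4), so that pigs 12, 13 and 40 are missing there. For T and NK genes the list medians were -1.14 in the border zone, -0.96 in the core and -0.22 in the normal region. For macrophage genes they were -0.67, -0.70 and 0.05, and for fatty acid oxidation 0.41, 0.52 and 0.02. For these lists the normal region medians lay nearer 0, over fewer pigs. Sarcomere genes differed by 0.13 in the border zone and 1.61 in the core, where the list mean of medium pig 40 was 0.93 against 4.78 to 7.27 on the other core arrays. Scar genes were at -0.59, -0.14 and 0.28. In limma no probe was called in the core or in the normal region, with 2588 and 1616 at an unadjusted p under 0.05.

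**Figure D4:**
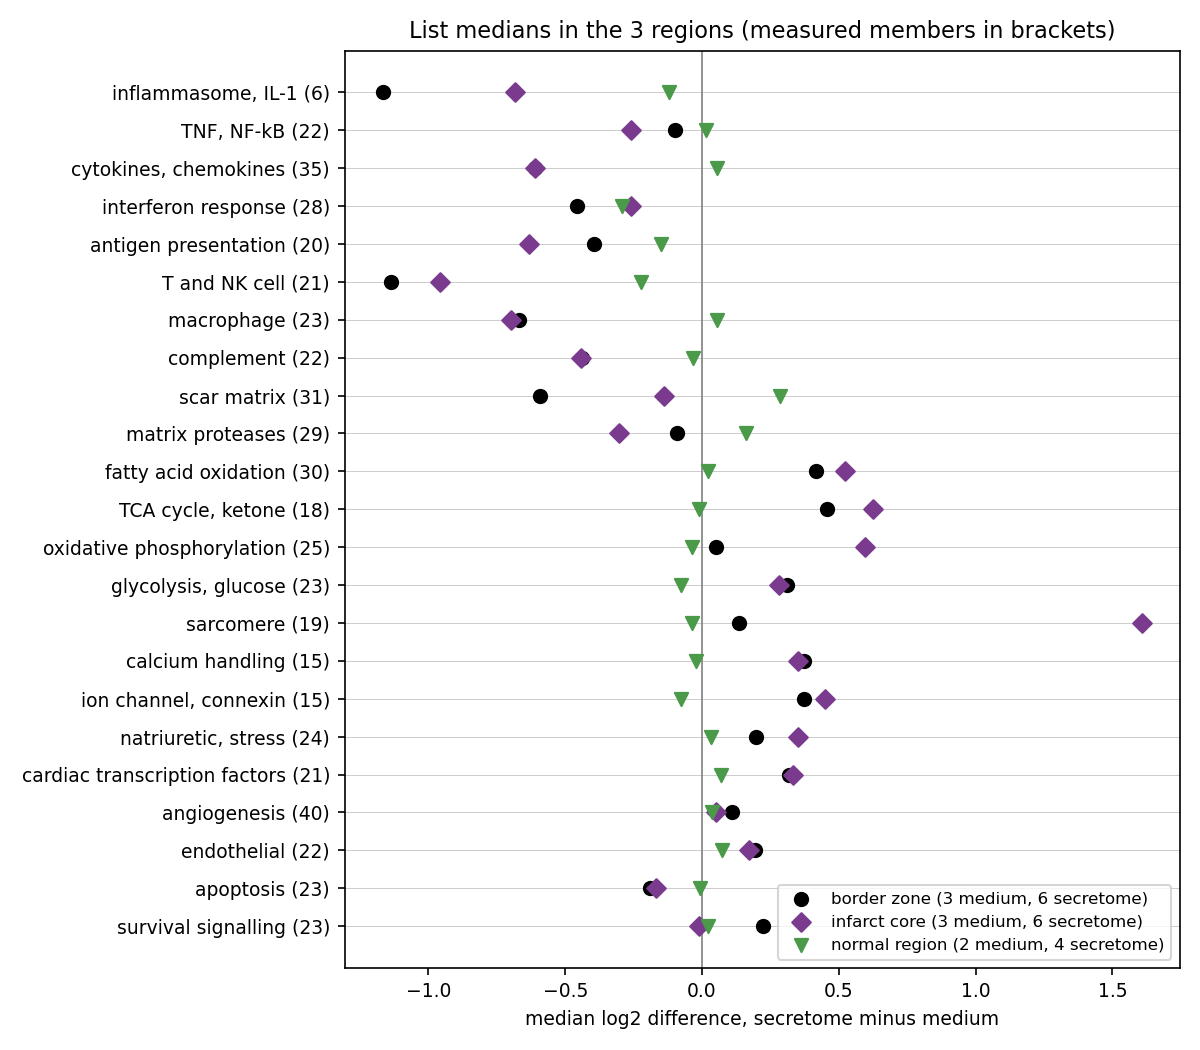
Median log2 difference (x axis, secretome minus medium) of 23 gene lists (y axis) in the border zone and the infarct core (9 pigs each) and the normal region (6 of these pigs). The normal region medians lie between -0.29 for the interferon response and 0.28 for scar matrix, and the border zone and core medians reach from -1.17 for the border zone inflammasome to 1.61 for core sarcomere genes.

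A test of the difference between regions found none past the threshold. In a limma fit over all 24 arrays with pig as a random block, 0 of 32026 probes had an arm difference in the border zone that differed from that in the core at an adjusted p under 0.05, with 1978 (6.18%) at an unadjusted p under 0.05. Against the normal region the count was 0 as well, with 2009 (6.27%) unadjusted. CASP1 differed by -1.52 in the border zone, -0.96 (SE 0.28) in the core and -0.38 (SE 0.21) in the normal region, and border minus core was -0.69 (SE 0.40, limma adjusted p 0.764). BDNF differed by 0.11 (SE 0.97) in the core, and border minus core was -3.42 (SE 1.27, limma adjusted p 0.764). NPPB differed by 1.49 (SE 1.37) in the core, and border minus core was -4.78 (SE 1.95, limma adjusted p 0.764).

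The genes of smallest p in these tests are given as values. Against the core, ADAMTS5, an aggrecan-cleaving protease, differed by 0.46 in the border zone and -0.80 in the core, FCN1, a lectin of monocytes, by 0.12 and -2.07, and CYP2D25, a cytochrome P450, by 0.18 and -1.04. SERTM1, NSUN7 and AP4S1 stood on the other side, at -0.41, -1.39 and -0.13 in the border zone and 0.71, 0.68 and 1.12 in the core. With normexp NSUN7 differed by -0.14 in the border zone. Against the normal region, STXBP6, TMEM108 and PLIN2, which coats lipid droplets, differed by 0.56, -0.03 and 0.86 in the border zone and by -0.35, -1.20 and -0.40 in the normal region. ALDH1L2, S100A2 and FSD1L differed by -0.20, -3.13 and -0.56 in the border zone and by 1.35, 1.38 and 0.81 in the normal region.

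AGT and IGFBP3 had opposite signs by region. AGT differed by 1.39 (SE 0.36) in the border zone, -1.03 (SE 0.79) in the core and -1.07 (SE 0.27) in the normal region, and border minus core was 2.58 (SE 0.75, limma adjusted p 0.764). IGFBP3 differed by 1.08 (SE 0.33), -0.69 (SE 0.46) and -0.88 (SE 0.35), and border minus core was 1.80 (SE 0.53, limma adjusted p 0.764). The border zone difference of IGFBP3 was only 0.069 with normexp and 0.069 in the authors' deposited table. Neither passed the test over all probes.

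**Figure D5:**
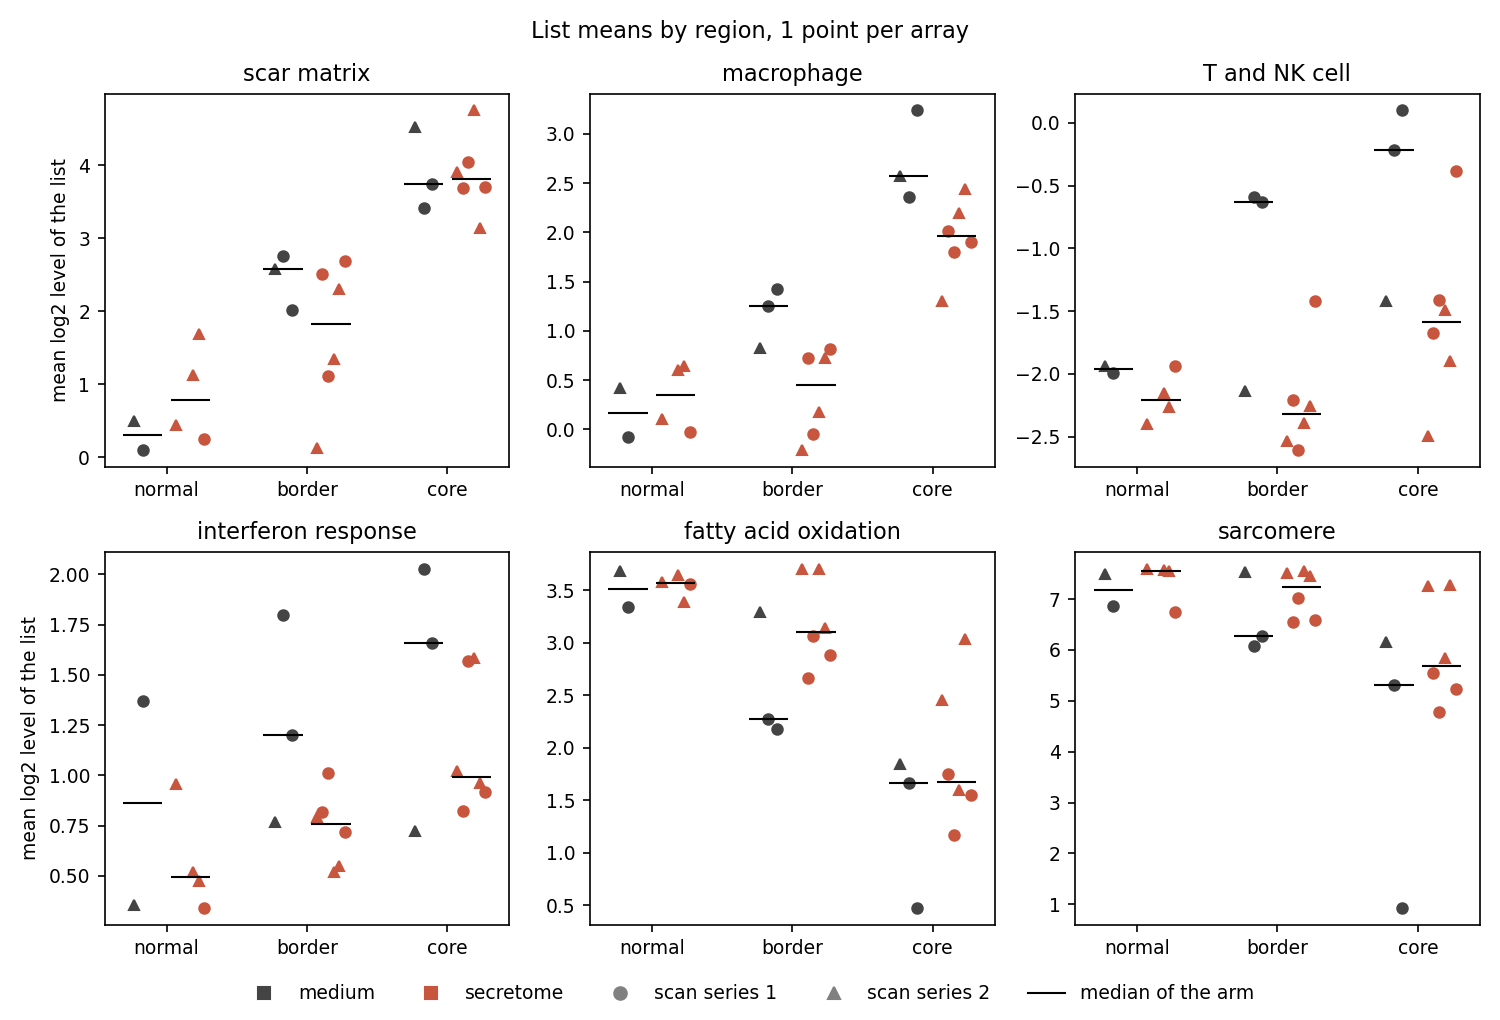
Mean log2 level of 6 gene lists (y axis, relative to the array's 75th percentile) on each of the 24 arrays by region (x axis) and arm, with circles for scan series 1, triangles for series 2 and a line at the median of each arm. In the border zone the macrophage means of the 3 medium pigs (0.83 to 1.42) lie above those of the 6 secretome pigs (-0.21 to 0.81), while the scar means overlap.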

How the data were processed

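Deposited scanner tables of 24 one-colour arrays held processed signal intensity per spot, from Feature Extraction 10.7.3.1 per the scan headers. The authors also deposited a table of normalized log2 values for 33348 probes, used as an alternative. The submitters' processing notes list limma 3.14.4, and how that table was normalized is not given in the sources used here. Here, log2 signal was centred on each array's 75th percentile, control and flagged spots were dropped, spots of a probe were averaged, and 32026 of 43603 probes well above background on at least 3 border arrays were kept. Gene symbols (13718 probes with 1 symbol, 28 with several, 29857 with none) came from RefSeq accessions, gene IDs and file names, and a gene was read from its brightest kept probe. The array number limits precision. The 9 border arrays were fitted with limma 3.58.1 (R 4.3.3), arm plus scan series, with Benjamini-Hochberg adjustment. Interactions used all 24 arrays with pig as random block, since same-numbered samples are 1 pig (21 same-pig pairs, mean correlation 0.616, all above 0.1). Named genes were, per direction, the 12 of smallest p among genes whose arms did not overlap within either scan series. Also named were up to 3 of smallest p from each of 23 lists, 30 fixed genes of which 26 were measured, and leading interaction genes. Of the fixed genes, COL1A1, COL3A1, MYH6 and MB had no usable named probe. A few others were chosen after their values were seen. Some genes that this rule names are not reported here. Members and lists were chosen with earlier results of these data known. The fit was tested on simulated data.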

Additional observations from a re-analysis of the deposited data

Results flagged for a closer look

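Among 116 named genes and 23 list means, 4 genes and 1 list had a border zone array of a secretome pig far from the other 5, by Dixon's test at the 95% level, which chance meets in about 5% of groups. Pig 16 had the highest CD2 level, -2.65, with the next at -3.80, and the highest T and NK list mean, -1.42, with the next at -2.21. The same pig had the lowest AGT level, 2.14, with the next at 3.15. CUX2 was highest in pig 11, at -2.97 with the next at -4.34, and SLA-DMB was lowest in pig 13, at 2.48 with the next at 3.05. Pig 16 also had the highest scar mean of the secretome pigs, 2.69, and its part in these values was not tested.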

How the results depend on the processing

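In limma, 0 probes were called in the border zone. The count was 3 with normexp background correction (BDNF and S100A2 probes, limma adjusted p 0.0388). It was also 3 in the fit of all 24 arrays with scan series, both with pig as a replicate block and with no replicate block. These were other probes, without a gene symbol, as were the 2 called without secretome pig 16. Leaving out each pig in turn gave 0 to 2, with 2 without secretome pig 16; the border against core count ran from 0 to 1 and the border against normal count from 0 to 3, the highest of each without pig 18. Probes at an unadjusted p under 0.05 numbered 3222 in all, and 1603 without the scan series term, 1527 in series 2, 1864 without pig 13, and 4758 and 4955 over all 24 arrays with and without the pig block. The inflammasome median was -0.43 with normexp and -0.58 in the authors' deposited table, the chemokine median -0.26 in that table, and the T and NK median -0.48 with normexp, -0.33 in that table and -0.11 in series 2. The TNF and NF-kB median was 0.037 with slide as a block and -0.16 to 0.027 with 1 pig left out. In series 2 the median was -0.43 for proteases, -0.15 for glycolysis, -0.19 for ion channels and 0.083 for transcription factors. Of 552 list medians under alternatives, 540 moved by less than the spread between pigs.

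Several genes changed sign. In series 2, TNF read 0.38, CXCL12 -0.040, KDR -0.0090, TGFB1 -0.14, LTB 0.36, NDUFAB1 -0.16 and CYP2D25 -0.27. In series 1, HIF1A read 0.075, AKT1 0.068, FCN1 -0.16, AP4S1 0.063 and TMEM108 0.24. With array weights, TNF read 0.050, KDR -0.031, NPPA -0.16, HIF1A 0.029 and CYP2D25 -0.037. With normexp, FCN1 read -0.100 and CYP2D25 -0.059, and with quantile normalization TMEM108 read 0.060. In the authors' deposited table, HIF1A read 0.0067, AP4S1 0.0096 and TMEM108 0.032. NPPA read -0.0069 with the pig block and scan series. AKT1 read 0.14 without scan series, 0.14 with the pig block and no scan series, and 0.066 with the slide block. With 1 pig left out, the ranges were -0.31 to 0.12 for TNF, -0.0025 to 0.41 for CXCL12, -0.11 to 0.49 for KDR, -0.76 to 1.25 for NPPA, -0.0020 to 0.35 for TGFB1, -0.21 to 0.11 for HIF1A, -0.19 to 0.068 for AKT1, -0.16 to 0.57 for FCN1, -0.10 to 0.46 for CYP2D25, -0.36 to 0.063 for AP4S1 and -0.30 to 0.24 for TMEM108. The cause of these moves was not tested. Of 2614 gene values under alternatives, 49 changed sign. Of 116 named genes, the difference moved by over 1.5 times or changed sign in 42 with normexp, in 70 in scan series 2, in 33 without medium pig 40, and in 46 of the 83 that the authors' deposited table holds.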

Other observations

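Some genes outside the naming rule were chosen after their values were seen. LIPM, of the lipase family, read -7.18, -2.04 and -6.42 in medium pigs 10, 18 and 40 and from -7.37 to 0.64 with a median of 0.29 with secretome. It was well above background in 1 of 3 medium and 5 of 6 secretome pigs, so no fold is given, and the groups overlapped. HBB, the beta chain of haemoglobin, read -7.43, -5.40 and -6.57 in the medium pigs and from -5.57 to -2.24 with a median of -3.94 with secretome, and was also well above background in 1 of 3 and 5 of 6 pigs. In limma neither passed adjustment (adjusted p 0.480 and 0.480).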
